A study of Mus musculus with 6 samples.

Results

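Poly(A) polymerases and terminal nucleotidyltransferases are the enzymes that add nucleotides to the 3′ end of RNA. They were followed here through their own mRNAs, in pachytene/diplotene (P/D) spermatocytes and in round spermatids (RS). A gene belonged to the group if its symbol, or an older symbol, was Papola, Papolb, Papolg, Tent5c (Fam46c), Tent5b, Tent2, Tent4b, Tut4 or Tut7. Of these 9 genes, 5 had at least 1 contig (an annotated transcript to which reads were assigned), and together they held 7 of the 11517 annotated transcripts. No contig carried the symbols Papolg, Tent2, Tent4b or Tut4. The contig list holds transcripts above a minimum number of reads, so the level of those 4 genes is not known from these data and they are not analysed here.

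All 6 samples came from the testes of adult wild-type C57BL/6J/B6 male mice that received no treatment. P/D spermatocytes and RS were sorted by DNA content and light scatter after Hoechst and propidium iodide staining. There were 3 samples of each cell type, each a pool of mRNA from 3 mice, and the study states that both cell types came from the same animals. Its microscopy found the P/D gate clearly less pure than the RS gate, so the P/D samples also hold RNA of other cells. Native RNA was read by direct RNA nanopore sequencing, in which 1 read is 1 molecule with its tail. Each cell type was sequenced as 1 multiplexed library, and for this reason cell type and library cannot be told apart. The samples held 244004 to 474688 reads. The 6 P/D spermatocyte markers took 0.222 to 0.233% of P/D reads and 0.136 to 0.14% of RS reads. Of these, Sycp3, Sycp1, Piwil1 and Pou5f2 were lower in every RS sample, with 311, 67, 355 and 212 reads over the P/D samples and 54, 56, 31 and 5 over the RS samples. Ccna1 overlapped between cell types, and Tbpl1, at 0.0820 to 0.0902% of P/D reads and 0.0966 to 0.0975% of RS reads, was higher in every RS sample. The 6 RS markers took 0.0361 to 0.0439% of P/D reads and 0.206 to 0.229% of RS reads, so that their level in P/D spermatocytes was 18.3% of that in RS. Without Acr, which gave 177 of their 325 P/D reads and overlapped between cell types, that level was 9.47%. The 5 elongating spermatid markers stood at 7.70% of their RS level in P/D spermatocytes. Of 5 markers each, Uchl1 was the 1 spermatogonial gene with a contig (0 to 5 reads a sample), Insl3 was the 1 Leydig cell gene (1 to 7 reads), and no Sertoli cell marker had one.

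PAPOLA is the canonical nuclear poly(A) polymerase that gives most new mRNAs their tail. PAPOLB is a testis-specific cytoplasmic enzyme of the same family, encoded by an intronless gene, and is required for spermiogenesis. The TENT5 proteins are non-canonical poly(A) polymerases that lengthen the tails of chosen mRNAs in the cytoplasm, and TUT4 and TUT7 add uridines to RNAs whose tails are already short.

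On GRCm38, Papolb (ENSMUST00000099400) lies on chr5:142525838-142530076, minus strand, as 1 exon of 4239 nt. Papola lies on chromosome 12, plus strand, and its longest protein-coding contig, ENSMUST00000109901, runs over chr12:105784694-105838807 with 22 exons and 4380 nt. The coding sequences of Papolb and of that Papola contig were identical at 85.2% of 1926 aligned bases. Those of Papola and Tent5c, which belong to different families, were identical at 68.7% of 1153 bases aligned with the same settings. The 1090 gap bases of that alignment were not counted. Tent5b and Tent5c, which belong to the same family, were identical at 68.1% of 1158 aligned bases. This measure thus did not set the TENT5 genes apart from genes of different families. Tent5c (ENSMUST00000061455) lies on chr3:100468057-100489324, minus strand, with 2 exons and 5640 nt, of which 4206 nt are 3′ UTR. Tent5b (ENSMUST00000051676) lies on chr4:133480132-133487938, plus strand, with 2 exons and 2287 nt. Tut7 (ENSMUST00000224480) lies on chr13:59771876-59809506, minus strand, with 19 exons and 4186 nt. No read of these genes was listed on more than 1 contig, so none was counted for both Papola and Papolb. Whether each read was placed on the right gene of that pair was not tested.

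A poly(A) tail is added where the transcript is cleaved, and the hexamer AATAAA is known as a signal for that cleavage. Its place near the annotated 3′ end of each contig is shown here because these are the transcripts whose tails are described. Where the reads themselves end was not analysed here. AATAAA, searched on the transcript strand in the last 50 bases, occurred in 6 of the 7 contigs and in 61.1% of the 11344 annotated transcripts with a sequence in GENCODE vM21. Each run below ends with that hexamer, in capitals, after the 24 bases that precede it. The first lines set Papolb beside the long Papola contig of its own family.
Papolb ENSMUST00000099400: aatgtatttctccattacaaacacAATAAA
Papola ENSMUST00000169938: gatgtatttctccattgaaaacacAATAAA
Papola ENSMUST00000166735: tggtatgtttttagattatattacAATAAA
Tent5c ENSMUST00000061455: tggaccagagctttcagtgtgagaAATAAA
Tent5b ENSMUST00000051676: ttgctattttgcactcttcccaccAATAAA
Tut7 ENSMUST00000224480: atgccggtttatttatcattttgaAATAAA
The hexamer starts 22 to 35 bases before the annotated end in these contigs. In ENSMUST00000109901 of Papola neither AATAAA nor ATTAAA occurred in that window.

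The first question was whether the mRNAs of the enzymes accumulate differently in the 2 cell types. All 4 genes that passed the filter on low counts, Papola, Papolb, Tent5b and Tent5c, were higher in RS. Over all 4819 genes tested, 34.9% were higher in RS and 31.3% were lower, and the median log2 fold change was 0.01. The median over the 4 genes was 1.00. Transcript by transcript, 4 of the 7 contigs were tested and were higher in RS, where 32.6% of 6005 transcripts were higher and 30.8% were lower. Among them, the Papola contig ENSMUST00000166735 passed the filter on low counts through its RS samples alone. With DESeq2, 2 contigs were called higher in RS. In sorted bulk samples, a change in the RNA of each cell and a change in the share of cells that carry it cannot be told apart. Together the 5 genes took 0.0571 to 0.0668% of P/D reads and 0.132 to 0.149% of RS reads.

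Papolb was the most abundant of the group in both cell types. Its levels were 464, 416 and 382 CPM (counts per 1000000 reads, scaled with TMM) across the P/D samples, given here and below in the order of replicates 1 to 3, and 669, 832 and 794 CPM across the RS samples. Each RS sample lay above each P/D sample. The log2 fold change was 0.93 (SE 0.12, adjusted p = 2.39e-08, edgeR), a 1.90-fold difference, which ranked at percentile 73.5 among the genes tested. Papolb reads outnumbered those of Papola by a similar margin in both cell types, making up 90.2% of the reads of the pair in P/D (341 of 378, 95% Wilson interval 86.8 to 92.8%) and 89.4% in RS (849 of 950, 87.2 to 91.2%). The reads of the replicates were added up here, so these intervals cover counting error only.

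Tent5c had the largest difference of the group. It stood at 77.9, 77.9 and 84.0 CPM across the P/D samples and at 514, 521 and 418 CPM across the RS samples. The samples of the 2 cell types were far apart, with close replicates on each side. The log2 fold change was 2.65 (SE 0.18, adjusted p = 9.86e-16), a 6.30-fold difference at percentile 85.6. Its share of the reads of the 5 genes went from 13.0% ± 1.3 (SD, n = 3) in P/D spermatocytes to 33.4% ± 4.5 in RS, while that of Papolb went from 67.8% ± 2.8 to 52.6% ± 2.9. The P/D level of Tent5c was 16.5% of its RS level, beside 18.3% for the RS markers as a list and 9.47% for that list without Acr. Whether RS RNA in the P/D samples had a part in the level of Tent5c was not tested.

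Tent5b, the other TENT5 gene of the group, was much less abundant than Tent5c in RS. Its levels were 65.6, 48.7 and 53.4 CPM across the P/D samples and 74.4, 103 and 96.3 CPM across the RS samples. The groups did not overlap, but the lowest RS sample lay close to the highest P/D sample. The log2 fold change was 0.79 (SE 0.27, adjusted p = 0.00911), a 1.73-fold difference. This call rests on few reads, 14 to 16 a sample in P/D, and was lost without P/D replicate 2 (adjusted p = 0.0516), without RS replicate 2 (adjusted p = 0.0524) and with DESeq2 (adjusted p = 0.0738).

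Papola stood at 45.1, 42.2 and 49.6 CPM across the P/D samples and at 74.4, 85.8 and 117 CPM across the RS samples, again without overlap. The log2 fold change was 1.07 (SE 0.28, adjusted p = 0.00110), a 2.10-fold difference at percentile 75.1. Tut7, the single uridylyltransferase of the group with a contig, had 4, 4 and 6 reads across the P/D samples and 7, 8 and 6 across the RS samples. These groups overlapped, and Tut7 did not pass the filter on low counts. Fitted without that filter, its log2 fold change was 0.15 with a 95% interval of -0.88 to 1.18. At this depth neither a rise nor a fall within that interval can be told from no difference. The interval includes the log2 fold change of 1.07 found for Papola.

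**Figure D1:**
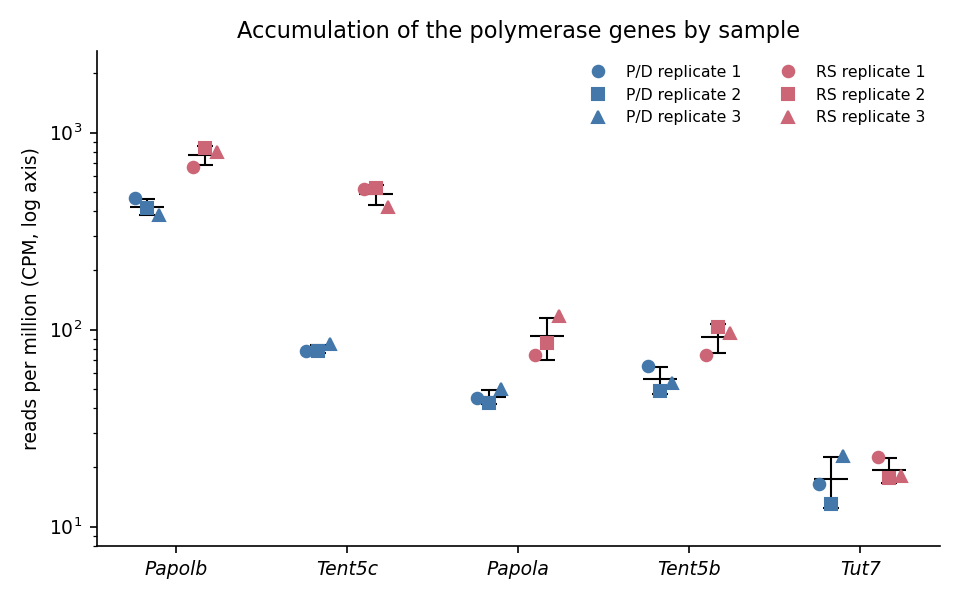
Counts per 1000000 reads (CPM) on a log axis for the 5 genes with reads, with 1 point for each replicate of P/D spermatocytes (blue) and RS (red) and the mean and SD in black (n = 3). The RS points lie above the P/D points for Papolb, Tent5c, Papola and Tent5b and overlap with them for Tut7.

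Scaled by contig length, the order of the transcripts changed with cell type. Per kb of contig, levels in P/D spermatocytes were 99.4 ± 10.3 CPM (SD, n = 3) for Papolb, 24.5 ± 3.9 for Tent5b, 23.0 ± 4.6 for the short Papola contig ENSMUST00000166735 and 14.2 ± 0.5 for Tent5c. Tent5b and the short Papola contig did not differ beyond their spread. In RS the order per kb was Papolb at 173 ± 16, Tent5c at 82.8 ± 11.4, the short Papola contig at 51.7 ± 6.3 and Tent5b at 38.4 ± 5.8. The remaining contigs were at or under 5.43 CPM per kb. A direct RNA read is 1 molecule whatever its length, so dividing by length favours short contigs, and without it Tent5c lay above both Tent5b and Papola in P/D spermatocytes as well.

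Most Papola reads were not assigned to the contig that encodes the whole enzyme. How far along the transcript these reads reach was not analysed. ENSMUST00000166735, at chr12:105784757-105809709, has 9 exons and 1033 nt. Its last exon starts where exon 9 of the 22 exons of ENSMUST00000109901 starts, continues 47 bases past the end of that exon into the intron, and ends 1 base after the stop codon. This short contig had 7, 6 and 6 reads across the P/D samples and 17, 22 and 21 across the RS samples. The RS samples all lay above the P/D samples, with a log2 fold change of 1.21 (SE 0.36, adjusted p = 0.00351), which DESeq2 put at adjusted p = 0.0508. It passed the filter on low counts through its RS samples alone. It held 51.4% of Papola reads in P/D (19 of 37, 95% Wilson interval 35.9 to 66.6%) and 59.4% in RS (60 of 101, 49.7 to 68.5%). These intervals, which cover counting error only, overlap widely.

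The 2 long Papola contigs had few reads. ENSMUST00000169938, annotated as a target of nonsense-mediated decay, at chr12:105784743-105838944 with 21 exons, was represented by 2, 4 and 4 reads across the P/D samples and 3, 13 and 12 across the RS samples. ENSMUST00000109901, the full-length protein-coding contig, had 2, 3 and 3 reads across the P/D samples and 3, 4 and 6 across the RS samples. Both overlapped between cell types and neither passed the filter on low counts, so no Papola transcript pair entered the test of transcript usage. With transcripts of at least 10 reads over the 6 samples, the usage of the 3 Papola contigs did not pass the test (adjusted p = 1.00, edgeR diffSpliceDGE, against 6.76% of 2484 genes that did).

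**Figure D2:**
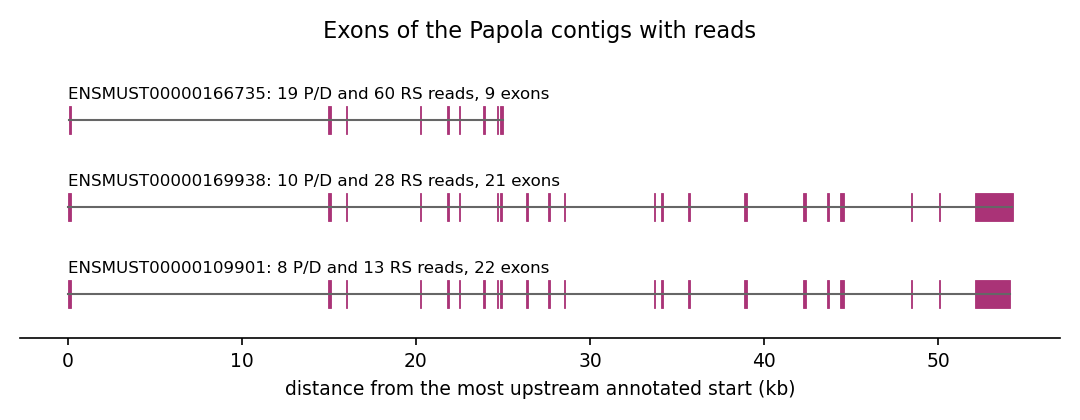
Exons (boxes) of the 3 Papola contigs with reads, drawn to scale as distance in kb from the most upstream annotated start, with the reads of the 3 P/D and 3 RS samples added up. The contig with the most reads, 19 for P/D and 60 for RS, ends after 9 exons, and the others continue to 21 or 22 exons.

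The second question was how long the tails of these mRNAs are. At the gene level, 3 of the 4 genes tested, Papolb, Tent5b and Tent5c, had longer mean tails in RS, and Papola did not pass the test. Over all 5247 genes tested, 55.0% had longer and 2.10% shorter mean tails in RS, and the median difference was 35.0 nt. The median over the 4 genes was 41.3 nt. Transcript by transcript, 5 of the 7 contigs were tested and 3 had longer tails in RS, where 54.2% of 6990 transcripts had longer and 1.69% shorter tails.

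The mean tail of Papolb was 136, 141 and 131 nt across the P/D samples and 180, 182 and 187 nt across the RS samples. The replicates lay close together and the groups far apart. The difference was 46.9 nt (SE 5.2, adjusted p = 5.61e-04, limma), at percentile 62.9 of all genes tested. For Tent5c the means were 130, 144 and 131 nt across the P/D samples and 174, 167 and 171 nt across the RS samples, again without overlap. That difference was 35.7 nt (SE 6.1, adjusted p = 0.00304), at percentile 50.9. The gene with the highest fold in accumulation thus had a difference in mean tail at the middle of the distribution over genes. The median tail placed both genes lower, among the 2818 genes with at least 10 reads in every sample. Its difference was 27.3 nt for Tent5c, at percentile 23.7, and 42.8 nt for Papolb, at percentile 36.5. Both lay below the median over those genes, as did the differences of Tent5b and Papola.

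Tent5b had the shortest tails of the group in P/D spermatocytes. Its means were 101, 125 and 80.8 nt across the P/D samples, which spread widely, and 155, 141 and 155 nt across the RS samples. The difference was 47.9 nt (SE 12.0, adjusted p = 0.0149), and the groups did not overlap. With a two-tailed equal-variance test on the same means the adjusted p was 0.0501.

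Papola was the exception among the 4 genes tested. Its mean tails were 117, 167 and 134 nt across the P/D samples and 132, 134 and 160 nt across the RS samples, and the groups overlapped. The difference was 2.96 nt (95% interval -33.0 to 38.9 nt, adjusted p = 0.880), at percentile 18.2 of all genes tested. The interval includes the median difference over genes, so a lengthening of ordinary size was not excluded by the 11 to 13 Papola reads in each P/D sample. The sign of so small a difference also changed with the reads used, reaching -8.15 nt without P/D replicate 1, -6.21 nt without RS replicate 3 and -0.0946 nt with tails of 10 to 300 nt.

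The mean tails of the Papola contigs in RS were compared without a test. The short contig had mean tails of 119, 115 and 142 nt across the RS samples, while ENSMUST00000169938 had 144, 155 and 189 nt and ENSMUST00000109901 had 192, 174 and 166 nt. The short contig lay below both long contigs in each RS sample. The long contigs had few reads there, 3, 13 and 12 for ENSMUST00000169938 and 3, 4 and 6 for ENSMUST00000109901. In P/D spermatocytes the short contig had 119, 167 and 107 nt, and the contigs followed no common order. The short contig differed between cell types by -5.58 nt (95% interval -47.6 to 36.4 nt, adjusted p = 0.805), and ENSMUST00000169938 by -4.44 nt (adjusted p = 0.855). Both met the read minimum through RS alone, with 6 or 7 and 2 to 4 reads in a P/D sample. Tut7 had mean tails of 200, 145 and 123 nt across the P/D samples and 138, 204 and 172 nt across the RS samples, from 4 to 8 reads a sample, and the groups overlapped.

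**Figure D3:**
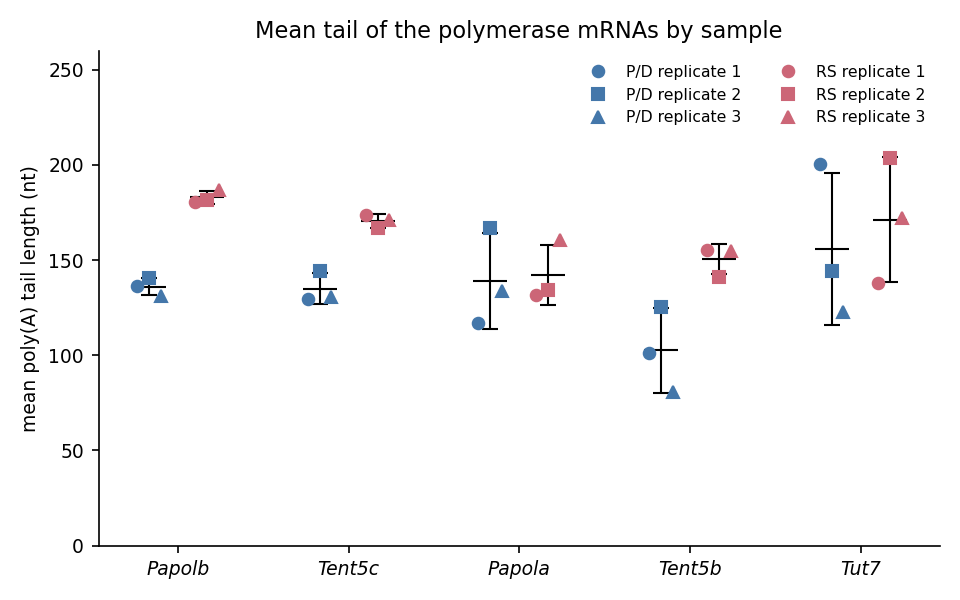
Mean poly(A) tail length in nt for the 5 genes with reads, with 1 point for each replicate of P/D spermatocytes (blue) and RS (red) and the mean and SD in black (n = 3). Papolb, Tent5c and Tent5b have RS points above all their P/D points, whereas Papola and Tut7 overlap.

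The single reads show which part of the tail distribution differed. The 10th percentile of Papolb tails was 56.3, 60.9 and 62.1 nt across the P/D samples and 150, 149 and 154 nt across the RS samples, a difference of 91.2 nt. The 90th percentile was 202, 224 and 199 nt across the P/D samples and 220, 224 and 224 nt across the RS samples, where the groups overlapped, a difference of 14.4 nt. The short-tailed Papolb molecules of P/D spermatocytes were thus nearly absent from RS. Over the 2818 genes with at least 10 reads in every sample, the median differences at the 10th and 90th percentiles of tail length were 52.7 and 18.3 nt, and Papolb ranked at percentile 92.4 of those genes for the former and 43.7 for the latter.

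Tent5c moved in the same way but by less at the lower end. Its 10th percentile was 53.3, 62.3 and 84.5 nt across the P/D samples and 138, 133 and 139 nt across the RS samples. That difference was 70.2 nt, at percentile 68.3 of the genes. Tent5c had 19, 24 and 22 reads across the P/D samples, so its lower and upper tail percentiles there rest on few molecules. At the 90th percentile the difference was 19.0 nt and the groups overlapped. Tent5b, with 14 to 16 reads in a P/D sample, did not stand out at the lower end. Its differences were 51.3 nt at the 10th percentile, without overlap, and 34.7 nt at the 90th, where the groups overlapped. They ranked at percentiles 48.1 and 76.0 of the genes. For Papola the differences were 4.02 nt at the 10th and 1.36 nt at the 90th percentile, with overlapping groups at both.

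**Figure D4:**
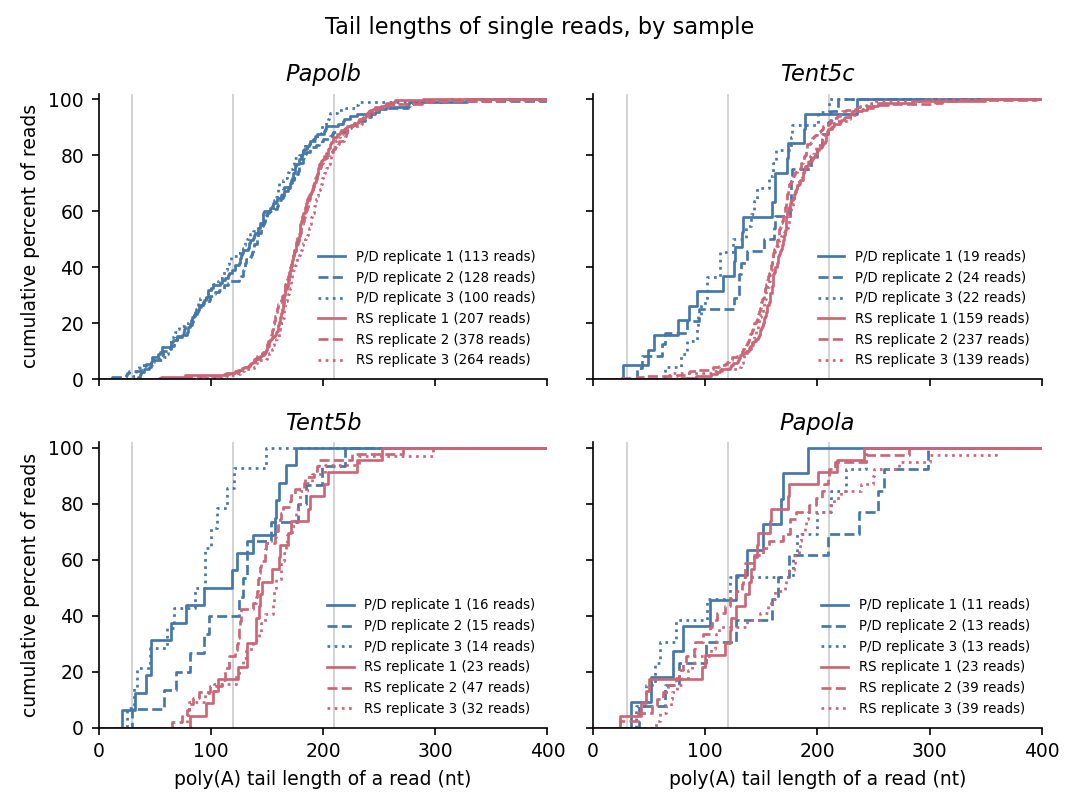
Cumulative percent of reads against tail length in nt for Papolb, Tent5c, Tent5b and Papola, with 1 line for each replicate of P/D spermatocytes (blue) and RS (red) and grey lines at 30, 120 and 210 nt. For Papolb and Tent5c the RS lines stay near 0 up to about 120 nt and approach the P/D lines above 210 nt, and for Papola the lines of both cell types run together.

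The reads were also counted in the tail classes of 30 to 120 nt and 120 to 210 nt. For Papolb the class of 30 to 120 nt held 38.9, 32.0 and 44.0% of reads across the P/D samples and 2.42, 2.38 and 1.52% across the RS samples. For Tent5c it held 31.6, 25 and 45.5% across the P/D samples and 3.77, 5.91 and 3.60% across the RS samples. For Tent5b it held 50.0, 33.3 and 78.6% across the P/D samples and 17.4, 25.5 and 15.6% across the RS samples. In these 3 genes all RS samples lay below all P/D samples, as they did in 77.9% of the 2818 genes, and the exact permutation test gave p = 0.1, two-sided, the smallest p that 3 samples against 3 allow. Of these 3 genes, Tent5b had the largest share of short tails in RS, with 19.5% ± 5.3 (SD, n = 3) against 4.43% ± 1.29 for Tent5c and 2.10% ± 0.51 for Papolb. Papola had 40.8% ± 8.7 of its reads in this class for P/D and 34.3% ± 7.6 in RS, with overlapping groups (exact permutation p = 0.5).

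The class of 120 to 210 nt rose from 51.8% ± 1.1 to 81.5% ± 1.9 of Papolb reads, from 58.2% ± 8.3 to 85.3% ± 0.4 of Tent5c reads and from 37.1% ± 20.3 to 74.1% ± 4.0 of Tent5b reads. All RS samples lay above all P/D samples in these 3 genes and in 80.2% of the 2818 genes, and the reverse held in 2.70% of the latter. The Papola share was 41.3% ± 12.1 in P/D spermatocytes and 49.3% ± 10.3 in RS. Tails of 210 nt or more made up 8.82% ± 3.45 of Papolb reads in P/D and 16.4% ± 2.1 in RS. For Tent5c they made up 6.05% ± 2.01 and 10.1% ± 1.1 of reads. Neither gene overlapped between cell types, but the Tent5c values in P/D rest on 1, 2 and 1 reads. The share of all genes without overlap in this class was not computed.

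The other enzymes of the same kind were described for comparison, from a list of 5 genes of which Tent5d, Tut1 and Mtpap had contigs. Tent5d, an X-linked member of the TENT5 family, had 1 read in each P/D replicate and 9, 31 and 24 reads across the RS samples. It did not pass the filter on low counts, and without that filter its log2 fold change was 3.84 (SE 0.57, adjusted p = 1.43e-10). Tut1, which adds uridines to U6 small nuclear RNA, differed in neither measure, with a log2 fold change of 0.00 (95% interval -0.58 to 0.57) and a tail difference of -1.31 nt (95% interval -17.1 to 14.5 nt). Tut1 tails averaged 105 ± 9 nt for P/D spermatocytes and 104 ± 5 nt for RS, beside 170.6 ± 3.4 nt for Tent5c in RS. Mtpap, the mitochondrial poly(A) polymerase, had 3 to 6 reads a sample.

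Proteins that bring such enzymes to an RNA or act on their product formed a list of 13 genes, of which 7 had contigs and 5 were tested at the gene level. All 5 were higher in RS, beside 34.9% of all 4819 genes tested. Samd4, which encodes an RNA-binding repressor, was 12.4-fold higher. Cpeb2 (4.47-fold) and Cpeb4 (2.47-fold) encode cytoplasmic polyadenylation element binding proteins. The others were Mtrex (2.11-fold), the helicase that works with TENT4 enzymes in the nucleus, and Samd4b (2.02-fold). Mean tails were longer in RS in 55.0% of all 5247 genes tested. In this list, those of Cpeb4, Cpeb2 and Mtrex were longer in RS by 39.8, 31.3 and 27.4 nt. Those of Samd4 (0.72 nt) and Samd4b (24.3 nt) did not pass the test. Samd4 had 8, 9 and 8 reads across the P/D samples, and Cpeb4 had 5, 12 and 6. Both met the minimum of 10 reads in 2 replicates for the tail test through their RS samples alone. They also passed the filter on low counts through RS. Their P/D mean tails and P/D levels thus rest on few reads. Of 4 nuclear partners of PAPOLA, 2 had contigs and Pabpn1, the nuclear poly(A)-binding protein, was tested. It was 3.30-fold higher in RS (adjusted p = 8.62e-08), with tails longer by 35.0 nt (adjusted p = 0.00985).

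**Figure D5:**
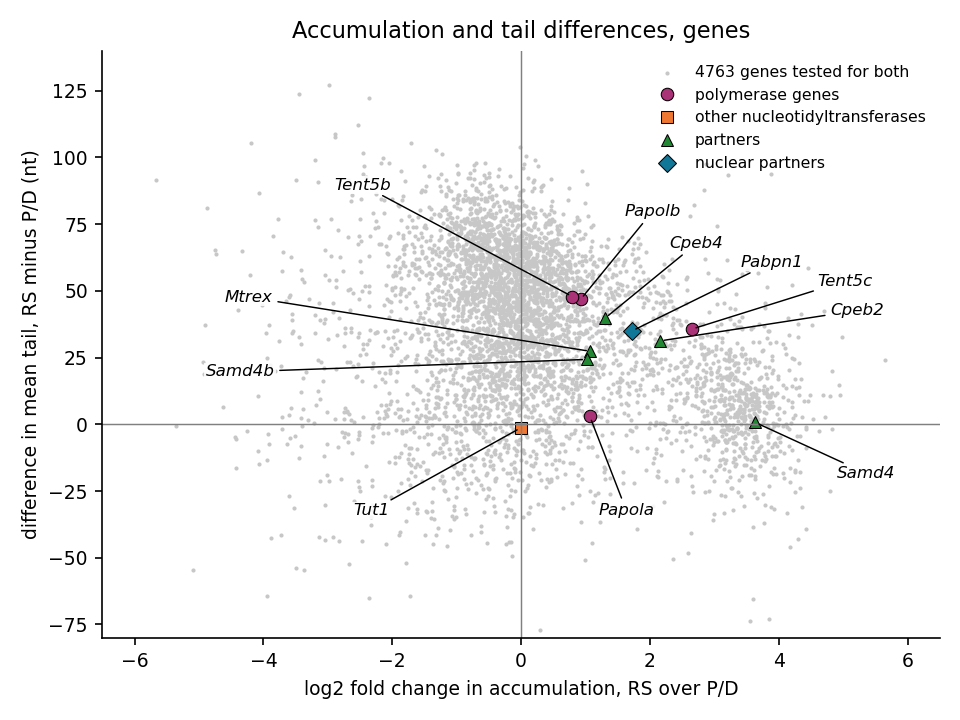
Log2 fold change in accumulation (RS over P/D) against the difference in mean tail (RS minus P/D, nt) for 4763 genes tested for both, of which 4 lie outside the axes. Papolb, Tent5b and Tent5c lie at positive values on both axes, and Papola lies at a positive fold change with a tail difference near 0.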

How the data were processed

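Reads had been basecalled, demultiplexed and aligned by the authors, who used minimap2 against GENCODE transcripts (GRCm38), estimated each tail with Nanopolish and kept transcripts with enough reads. RNA had been selected on oligo(dT) beads, so molecules with little tail may be under-represented. The deposited count table holds raw reads of each contig, not normalized. The other deposited measurement is a tail length in nt for every read. The counts equalled the listed reads for every contig and sample. Samples were grouped by the labelled cell type.

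Counts were tested with edgeR 4.0.16 (TMM, filterByExpr, glmQLFit and glmQLFTest), over all transcripts and over distinct reads per gene. Mean tails per sample were tested with limma 3.58.1 (lmFit, eBayes) for features with 10 or more reads in 2 or more replicates of 1 cell type, and a mean in 2 or more of both. Adjusted p-values are Benjamini-Hochberg values over all features tested, with a threshold of 0.05. The SE of a log2 fold change was taken from the F statistic. Alternatives were DESeq2 1.42.0 and other normalization, filters, tail summaries, class bounds and each replicate left out. Leaving out replicates for the class shares was chosen after seeing the data. Classes include their lower and not their upper bound. Each sample is a pool from its own 3 mice, so p-values measure the spread between pools. Every gene of the group is named, with its transcripts of at least 10 reads. Other genes come from lists of related enzymes, partners and markers. The members and lists were chosen with earlier results of these data known. Annotation and sequences are from GENCODE vM21 (GRCm38), with R 4.3.3, Python 3.11.15 and Biopython 1.88.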

Additional observations from a re-analysis of the deposited data

How the results depend on the processing

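Papolb and Tent5c kept the direction and the call of both differences under every alternative run, and Papola kept its higher level at the gene level. The number of transcripts higher in RS was 4, and 2 with DESeq2, and ranged from 3 to 4 when single replicates were left out. The transcript of Tent5b lost its higher level with DESeq2 and without P/D replicate 2, P/D replicate 3 or RS replicate 2 (adjusted p of up to 0.115), and its longer tail with the equal-variance test and without RS replicate 1 or 3 (adjusted p of up to 0.0534). Papola tails, never past the threshold, changed sign. The gene-level difference was -0.0946 nt with tails of 10 to 300 nt and ranged from -8.15 to 16.7 nt when single replicates were left out. That of ENSMUST00000166735 ranged from -17.8 to 12.5 nt and that of ENSMUST00000169938 from -17.4 to 11.8 nt, and the latter was 0.11 nt with weights by reads.

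The size of the class differences depends on the bounds. With 30 to 90 nt in place of 30 to 120 nt, the share changed by -24.7 percentage points for Papolb and -16.7 for Tent5c, against -36.2 and -29.6. With 120 to 180 nt in place of 120 to 210 nt, it rose by 9.44 and 16.3 points, against 29.7 and 27.1. The narrower bounds leave out part of the same reads.

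The replicate number as a block lost none of the member calls. By the study's account each animal gave both cell types, but no source used here says that the replicate numbers match between cell types. Deviations of same-numbered samples correlated at 0.03, 0.24 and 0.07 for log2 CPM over 1827 transcripts, and P/D replicate 1 correlated best with RS replicate 3, so the numbers were not taken as pairs. Depth limits Tut7, the long Papola contigs and Tent5b in P/D spermatocytes, which rest on 2 to 16 reads a sample in that cell type. Tent5c had 19 to 24 reads a sample there.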

Other observations

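Several transcripts that the study discusses beside PAPOLB and TENT5C were described as a further list of 6 genes, chosen by the study on related samples. Ldhc, a germ cell lactate dehydrogenase, was 0.81 times its P/D level in RS (log2 fold change -0.31, SE 0.07, adjusted p = 1.34e-04) and its mean tail was longer by 54.1 nt, from 106.2 ± 0.4 to 160.4 ± 2.4 nt (SD, n = 3). Odc1, the first enzyme of polyamine synthesis, did not pass the gene-level test for accumulation (log2 fold change 0.30, adjusted p = 0.0625) and its tail was longer by 66.6 nt. Of its contigs tested, ENSMUST00000221613 was 2.54-fold higher in RS (adjusted p = 2.16e-04, edgeR). The other, ENSMUST00000171737, did not pass (0.996-fold). Odf1 and Smcp, which encode an outer dense fiber protein and a mitochondrial capsule protein of the sperm tail, were 11.7-fold and 10.5-fold higher in RS. Their mean tails were already 173.6 ± 8.2 and 167.3 ± 4.6 nt in P/D spermatocytes and differed by 3.08 nt (95% interval -11.3 to 17.5 nt) and 5.83 nt (95% interval -6.88 to 18.5 nt). The Smcp contigs tested were unlike: ENSMUST00000098888 differed by 5.28 nt and did not pass. The tail of ENSMUST00000194965 was longer in RS by 31.3 nt (adjusted p = 0.0430, limma). Odf1 is also on the elongating spermatid list, which stood at 7.70% of its RS level in P/D spermatocytes. The P/D level of Odf1 was 8.74% of its RS level, and the part of later cells in these values was not tested. Insl3 and Ptgds had at most 7 reads in any sample.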
